A study of Homo sapiens with 9 samples.

Results

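SRF and 9 genes of the actin cytoskeleton that it is known to control were followed in NCI-H1155 cells exposed to either of 2 kinase inhibitors. The members were taken by gene symbol, and all 10 were found among the 23369 genes of the deposited table: SRF, ACTB, ACTG1, CFL1, PFN1, MYL6, TPM1, TPM3, VCL and FLNA. NCI-H1155 was established from a human non-small cell lung cancer of neuroendocrine type. The groups were cells given 1 µM foretinib for 4 h, cells given 1 µM cabozantinib for 4 h and cells given DMSO, with 3 libraries each, described by the submitters as biological triplicates. Cells in all groups were grown in RPMI-1640 with serum and plated 24 h before treatment, and no label states the DMSO concentration or exposure time. Library numbers below are those of the sample titles. A single cell line was used, so the values describe this line only. The series asks how inhibitors of similar structure differ in activity. Foretinib and cabozantinib both inhibit MET, KDR and other tyrosine kinases. As a structural difference, foretinib bears an additional fluorine on its middle phenyl ring, and a morpholinopropoxy chain where the cabozantinib quinoline has a methoxy group.

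SRF is a transcription factor that binds a short AT-rich element called the CArG box, and it works with 2 kinds of partner. MRTF coactivators (MKL1 and MKL2) bind monomeric actin and are free to enter the nucleus when actin assembles into filaments, so that the genes of actin and its binding proteins are transcribed according to the state of the cytoskeleton. The ternary complex factors ELK1, ELK3 and ELK4 are phosphorylated by ERK and direct SRF to immediate early genes. Tyrosine kinase signalling can reach SRF by either route, through actin assembly or through RAS and ERK.

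The promoters are shown first because the CArG box is the element through which SRF acts. RefSeq promoters on GRCh38.p14 were at hand for 9 of the 10 members, ACTB being the one without an entry. An exact CArG box within the 250 bases upstream of the start was found in 3 of these 9 genes, SRF, ACTG1 and FLNA. Counted by promoter, this was 3 of their 11 promoters, against 407 (1.16%) of all 35116 promoters in the table. The form of the box is its own reverse complement, so that 1 search covered both strands, and no other motif was searched. The stretches that hold the boxes follow, with the boxes in capitals.
SRF: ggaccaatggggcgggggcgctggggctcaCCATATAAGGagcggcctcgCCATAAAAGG
ACTG1: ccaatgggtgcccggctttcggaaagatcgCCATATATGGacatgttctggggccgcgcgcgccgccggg
FLNA: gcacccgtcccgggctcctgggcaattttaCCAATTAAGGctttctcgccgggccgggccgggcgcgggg

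The SRF stretch lies at chr6:43171209-43171268 on the plus strand and holds 2 boxes, at positions -30 to -21 and -10 to -1 from the start. The ACTG1 stretch lies at chr17:81512854-81512923 on the minus strand, with its box at -94 to -85. The FLNA stretch lies at chrX:154374689-154374758 on the minus strand, with its box also at -94 to -85. CFL1, PFN1, MYL6, TPM1, TPM3 and VCL had no such letters in this window, which says nothing of boxes elsewhere.

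Values are normalised read counts, that is reads assigned to a gene divided by a size factor of the library. Gene-assigned reads numbered 26996023 to 34062153 in foretinib libraries, 27264766 to 27522332 in cabozantinib libraries and 27257862 to 32986439 in DMSO libraries. Zeros were unequal between groups: of the 12642 genes tested, 16.3% to 21.02% were at 0 in a foretinib library, 4.41% to 5.48% in a cabozantinib library and 5.30% to 10.9% in a DMSO library. All 10 neuroendocrine markers examined were above 0 in every library, CHGA between 8976 and 15869. Of 7 smooth muscle markers 2, ACTA2 and CNN1, were listed at 0 in all 9 libraries, and SMTN was at 754 to 2535 in every library. Of 6 fibroblast markers 3, COL3A1, DCN and PDGFRB, were at 0 throughout, while COL1A2 was at 338 to 1194 in every library. Of 6 leukocyte markers 4, PTPRC, CD3E, CD14 and MS4A1, were at 0 throughout, and CD68 ranged from 0.822 to 755. Of 5 endothelial markers 4, CDH5, VWF, TEK and the inhibitor target KDR, were at 0 throughout, and PECAM1 reached 87.4. Fold changes were tested on log2(value + 1) with limma over all tested genes, in a model of all 9 libraries. A call is a Benjamini-Hochberg adjusted p below 0.05. All 10 members passed the filter on low values. Values with an error are means ± SD of 3 libraries.

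None of the 10 genes was called in any comparison. Together they held 0.975%, 1.11% and 0.844% of gene-assigned reads in the foretinib libraries, 0.950%, 0.959% and 0.932% in the cabozantinib libraries and 1.06%, 1.11% and 1.02% in the DMSO libraries. The cabozantinib libraries lay close together and below all DMSO libraries, while the foretinib libraries spanned both. Summed levels were 277445 ± 41404 in foretinib, 260343 ± 2578 in cabozantinib and 289693 ± 12989 in DMSO. ACTB and ACTG1 made up 67.0% of the sum in foretinib, 65.5% in cabozantinib and 68.2% in DMSO. Without these actins the sums of the other 8 members were 90961 ± 7704 in foretinib, 89733 ± 543 in cabozantinib and 92109 ± 1299 in DMSO. In such bulk libraries fewer cells with these transcripts and less of them per cell cannot be told apart.

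**Figure D1:**
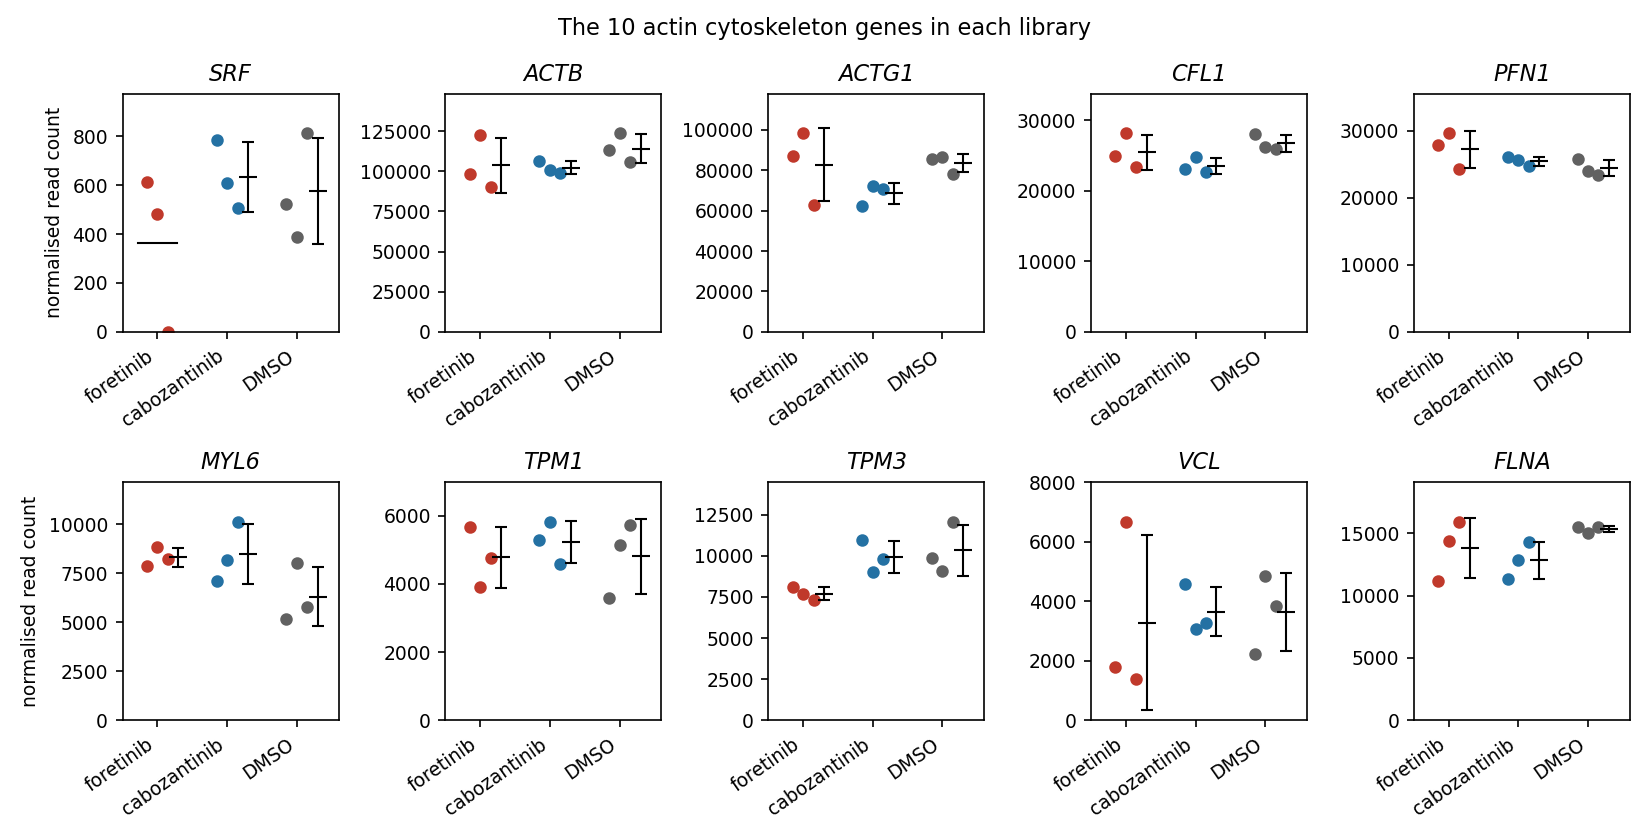
Normalised read counts (vertical axes, from 0) of the 10 genes in the foretinib, cabozantinib and DMSO libraries, as dots in title order with the mean ± SD beside them (n = 3); for SRF in foretinib, where a library is at 0, only the mean is drawn. TPM3 is the gene whose 3 foretinib libraries (7317 to 8129) lie below all other libraries (9018 to 12068).

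SRF itself was the least abundant member in reads and the least precisely measured. Its normalised read counts were 612, 481 and 0 in foretinib libraries 1, 2 and 4, against 786, 607 and 505 in the cabozantinib libraries and 525, 390 and 812 in the DMSO libraries. Apart from the library at 0, the values of the 3 groups overlapped. The log2 fold change was -3.05 for foretinib against DMSO (95% interval -7.44 to 1.35, limma adjusted p = 0.585) and -3.23 for foretinib against cabozantinib (-7.62 to 1.17, adjusted p = 0.558). Both came from foretinib library 4: without it they were -0.02 and -0.20. That library also had the most tested genes at 0, 21.02%, and the part of this in the SRF value was not tested. Genes in the same decile by mean level had a median log2 fold change of -1.78 for foretinib against DMSO. The SRF difference between cabozantinib and DMSO was 0.18 (-4.22 to 4.57, adjusted p = 1.00). The SE of 2.04 was pooled over all 9 libraries, foretinib library 4 included.

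ACTB and ACTG1 encode the cytoplasmic actins, the building blocks of the filaments and the classic MRTF and SRF targets. ACTB was at 98190, 122852 and 90187 in foretinib, against 106671, 100789 and 98929 in cabozantinib and 113260, 123740 and 105527 in DMSO. Foretinib values overlapped with both other groups, and a cabozantinib library lay above the lowest DMSO library. For ACTB the log2 fold change was -0.15 for foretinib against DMSO (SE 0.13, 95% interval -0.42 to 0.12, adjusted p = 0.669). It was -0.16 for cabozantinib against DMSO (-0.43 to 0.11, adjusted p = 1.00) and 0.01 for foretinib against cabozantinib (-0.26 to 0.28, adjusted p = 0.978). On a linear scale the interval for foretinib against DMSO ran from -25.3% to 9.03%.

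ACTG1 was at 86959, 98264 and 63001 in foretinib, against 62309, 72293 and 70837 in cabozantinib and 85606, 86298 and 78320 in DMSO. All 3 cabozantinib libraries lay below all 3 DMSO libraries, whereas foretinib library 4 stood at the cabozantinib level and the other foretinib libraries stood above every DMSO library. For cabozantinib against DMSO the log2 fold change was -0.29 (SE 0.15, 95% interval -0.61 to 0.04), with an unadjusted p of 0.0786 and a limma adjusted p of 1.00. The difference was -0.03 for foretinib against DMSO (-0.36 to 0.29, adjusted p = 0.945), or 0.15 without foretinib library 4. For foretinib against cabozantinib it was 0.25 (-0.07 to 0.58, adjusted p = 0.540), and 0.44 without that library (range of the adjusted p over the alternatives 0.182 to 0.982). Both actins have many near-identical genomic copies, among which a counting program may divide or discard reads, so their absolute levels are uncertain. No row of the table carried an ACTB or ACTG1 pseudogene symbol. Of the 2 pseudogene rows of other members, CFL1P1 was at 0 throughout and PFN1P2 was at 105 in DMSO library 5 and at 0 elsewhere.

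Within a library the size factor cancels from a ratio of 2 genes. The ratio of ACTB to ACTG1 reads was 1.13, 1.25 and 1.43 in foretinib, against 1.712, 1.394 and 1.397 in cabozantinib and 1.32, 1.43 and 1.35 in DMSO, and the groups overlapped. The exact two-sided permutation test gave p = 0.40 for foretinib against DMSO and p = 0.30 for each of the other 2 comparisons, in a design that cannot go below 0.10. Over the 9 ratio tests made, the smallest Benjamini-Hochberg value was 0.54, from exact permutation p-values of 0.20 to 0.60. ACTB over SRF reads ranged from 130 to 317 in the 8 libraries where SRF was above 0. Its exact permutation p-values were 0.60 (foretinib and DMSO), 0.50 (cabozantinib and DMSO) and 0.30 (foretinib and cabozantinib). These tests used log2(value + 1), and those with foretinib included its library 4, where SRF was at 0. In that library the log2 ratio of 16.5 was set by the added 1, and the size factor did not cancel.

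CFL1 and PFN1 govern filament turnover. Cofilin, the CFL1 product, severs and disassembles old filaments, and profilin, the PFN1 product, binds monomers and feeds them to growing ends. CFL1 was at 24857, 28151 and 23331 in foretinib, against 23020, 24827 and 22725 in cabozantinib and 28039, 26254 and 25853 in DMSO. As for ACTG1, all cabozantinib libraries lay below all DMSO libraries, by a narrow margin, and foretinib spanned both. The log2 fold change of CFL1 was -0.18 for cabozantinib against DMSO (SE 0.13, -0.47 to 0.10, adjusted p = 1.00) and -0.07 for foretinib against DMSO (-0.36 to 0.21, adjusted p = 0.843). PFN1 was at 27895, 29638 and 24255 in foretinib, against 26028, 25697 and 24706 in cabozantinib and 25725, 24048 and 23436 in DMSO. All groups overlapped, and the log2 fold change of PFN1 was 0.16 for foretinib against DMSO (-0.13 to 0.44, adjusted p = 0.665) and 0.06 for cabozantinib against DMSO (-0.22 to 0.35, adjusted p = 1.00). PFN1 in cabozantinib had a coefficient of variation of 2.70%, the smallest of its 3 groups. Between foretinib and cabozantinib the log2 difference was 0.11 for CFL1 (-0.17 to 0.39) and 0.09 for PFN1 (-0.19 to 0.38).

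MYL6, the essential light chain of non-muscle myosin II, had the highest positive log2 fold change of the members in both inhibitors against DMSO. It was at 7890, 8859 and 8214 in foretinib, against 7100, 8182 and 10135 in cabozantinib and 5156, 8019 and 5770 in DMSO. DMSO libraries 2 and 5 lay below all inhibitor libraries, and DMSO library 4 lay among them. Its log2 fold change was 0.42 for foretinib against DMSO (SE 0.22, 95% interval -0.05 to 0.90, unadjusted p = 0.0760, limma adjusted p = 0.531). It was 0.43 for cabozantinib against DMSO (-0.04 to 0.91, unadjusted p = 0.0689, limma adjusted p = 1.00). The 2 comparisons share their DMSO libraries, so they are not separate observations. Foretinib and cabozantinib differed by -0.01 (-0.48 to 0.46, adjusted p = 0.986). Without DMSO library 4 the log2 fold changes were 0.61 and 0.62, and without DMSO library 2 they were 0.29 and 0.30. MYL6B, the close relative of MYL6, was at 1952, 208 and 1286 in foretinib, against 670, 1264 and 554 in cabozantinib and 435, 177 and 148 in DMSO. All cabozantinib libraries lay above DMSO, as did 2 of the foretinib libraries, and neither difference passed (limma adjusted p = 1.00 and 0.532).

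TPM1 and TPM3 encode tropomyosins, coiled-coil proteins that lie along the filament and set which myosins and severing proteins can reach it. TPM3 was at 8129, 7647 and 7317 in foretinib, against 10980, 9018 and 9824 in cabozantinib and 9861, 9049 and 12068 in DMSO. The foretinib libraries were close to each other, with a coefficient of variation of 5.30% where the median of genes in the same decile was 23.6%, and all lay below every other library. TPM3 averaged 7698 ± 408 in foretinib, 9941 ± 986 in cabozantinib and 10326 ± 1562 in DMSO. The log2 fold change was -0.41 for foretinib against DMSO (SE 0.18, 95% interval -0.81 to -0.02, unadjusted p = 0.0400, limma adjusted p = 0.531) and -0.43 relative to the median of genes in the same decile. For foretinib against cabozantinib it was -0.37 (-0.76 to 0.03, adjusted p = 0.514), and for cabozantinib against DMSO -0.05 (-0.44 to 0.34, adjusted p = 1.00). The foretinib difference thus did not pass over all genes, with adjusted p-values of 0.152 to 0.776 over the alternatives. Its direction was the same in each of 19 alternatives. Several of these cannot change it: the other filters, only the 6 libraries compared, and leaving out a cabozantinib library.

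TPM1 was at 5672, 3900 and 4746 in foretinib, against 5296, 5818 and 4581 in cabozantinib and 3575, 5123 and 5712 in DMSO, and the groups overlapped throughout. TPM1 had a log2 fold change of 0.0016 for foretinib against DMSO (-0.55 to 0.55, adjusted p = 1.00). Its sign changed in 8 of 19 alternatives, not all of which can change it. For cabozantinib against DMSO the log2 fold change of TPM1 was 0.14 (-0.41 to 0.69). The ratio of TPM1 to TPM3 reads was 0.698, 0.510 and 0.649 in foretinib, against 0.482, 0.645 and 0.466 in cabozantinib and 0.363, 0.566 and 0.473 in DMSO, with an exact permutation p of 0.20 for foretinib against DMSO.

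The paralogs TPM2 and TPM4, which are no members but encode the remaining tropomyosins, were among 8 tested paralogs of the members. Of these 8, 1 was higher and 1 lower in foretinib than in DMSO at an unadjusted p below 0.05. Over all tested genes the shares were 2.17% higher and 6.9% lower. TPM4 was at 12612, 17055 and 13674 in foretinib, against 10284, 10547 and 9913 in cabozantinib and 11655, 9233 and 11266 in DMSO. All foretinib libraries lay above all others, with a log2 fold change of 0.43 against DMSO (0.05 to 0.80, limma adjusted p = 0.526) and 0.48 against cabozantinib (0.11 to 0.86, adjusted p = 0.410). TPM2 was at 311, 18.2 and 0 in foretinib, against 638, 434 and 295 in cabozantinib and 395, 825 and 520 in DMSO, and it did not pass (adjusted p = 0.528 for foretinib against DMSO). The summed level of the 4 tropomyosin genes was 27027 ± 1466 in foretinib, 25876 ± 1294 in cabozantinib and 26427 ± 2790 in DMSO.

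**Figure D2:**
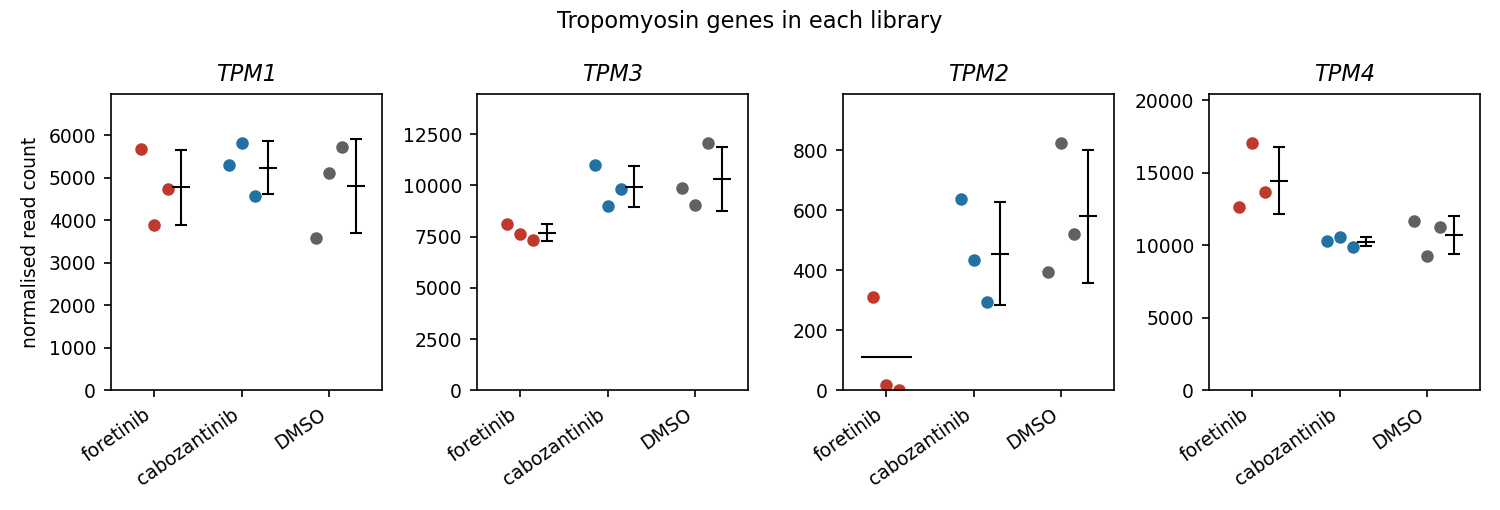
Normalised read counts (vertical axes, from 0) of the tropomyosin genes in the foretinib, cabozantinib and DMSO libraries, as dots in title order with the mean ± SD beside them (n = 3); for TPM2 in foretinib only the mean is drawn. In foretinib the 3 values of TPM3 lie below, and those of TPM4 above, all other libraries, while TPM1 overlaps.

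VCL and FLNA connect filaments to each other and to the membrane. Vinculin, the VCL product, links actin to integrin adhesions and cadherin junctions. VCL was at 1802, 6667 and 1375 in foretinib, against 4588, 3066 and 3279 in cabozantinib and 2237, 4852 and 3831 in DMSO. Foretinib libraries 1 and 4 lay below, and foretinib library 2 above, every other library, so that the coefficient of variation was 89.6% in foretinib, 22.6% in cabozantinib and 36.2% in DMSO. For genes in the same decile by mean level the medians were 36.8%, 18.4% and 21.1% in the same order. For VCL the log2 fold change was -0.44 for foretinib against DMSO (-1.52 to 0.64, adjusted p = 0.740), -1.14 without foretinib library 2 and 0.0007 without foretinib library 4. For cabozantinib against DMSO it was 0.05 (-1.03 to 1.13, adjusted p = 1.00).

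FLNA encodes filamin A, which crosslinks filaments into networks. It was at 11179, 14356 and 15910 in foretinib, against 11309, 12855 and 14269 in cabozantinib and 15497, 15014 and 15481 in DMSO. The DMSO libraries were tightly grouped, with a coefficient of variation of 1.79%, and all cabozantinib libraries lay below them. FLNA had a log2 fold change of -0.27 for cabozantinib against DMSO (SE 0.17, -0.64 to 0.11, adjusted p = 1.00), -0.17 for foretinib against DMSO (-0.54 to 0.21, adjusted p = 0.719) and 0.10 for foretinib against cabozantinib (-0.27 to 0.47, adjusted p = 0.826).

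Read across the members, foretinib against DMSO gave 0 of 10 calls, against 0.0% of all 12642 tested genes. At an unadjusted p below 0.05 the count was 1 of 10, TPM3, against 9.07% of all genes. DESeq2 on the recovered reads also called 0 of 10, against 5.38% of the genes it adjusted, and edgeR called 0. Libraries of the groups did not overlap for 1 member, TPM3, with foretinib lower, against 7.69% of all genes lower without overlap and 4.43% of the 1265 genes in the decile with the highest mean level, which holds 8 of the 10 members. No member was higher without overlap, against 3.99% of all genes. The median log2 fold change was -0.11 over the members and -0.34 over all tested genes. Quantile normalisation moved this median of all genes to -0.04. For the most abundant decile it was 0.02 and for the 8 members in it -0.05.

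For cabozantinib against DMSO the count was 0 of 10 calls (0.0% of all genes), 0 of 10 at an unadjusted p below 0.05 (1.31% of all genes), and 0 of 10 by DESeq2 (0.389%) and by edgeR. Cabozantinib libraries lay below DMSO libraries without overlap for 3 of 10 members, ACTG1, CFL1 and FLNA, against 4.71% of all genes and 4.35% of the most abundant decile. The 3 log2 fold changes were -0.29, -0.18 and -0.27, each with a 95% interval that crossed 0, and 0 members lay above without overlap, against 5.18% of all genes. The median over the members was 0.0005, against 0.04 over all tested genes; MYL6, TPM1, PFN1, SRF and VCL had positive values and the other 5 members negative ones.

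Foretinib and cabozantinib were compared directly at the same dose and time, as a single pair of compounds. The count was 0 of 10 calls (0.0% of all genes), 0 of 10 at an unadjusted p below 0.05 (9.9%), and 0 of 10 by DESeq2 (5.12%) and by edgeR. Groups did not overlap for 1 member, TPM3, with foretinib lower, against 9.7% of all genes and 5.3% of the most abundant decile, and 0 members were higher without overlap, against 4.49% of all genes. No member was called different, in a comparison where limma called 0.0% of all genes. The part of the fluorine and the morpholinopropoxy chain cannot be told from a single pair of compounds. The intervals are those of single genes and set no firm limit on how far apart the compounds could be. Among the narrowest were those of ACTB (-16.6% to 21.7%), PFN1 (-12.4% to 29.9%) and CFL1 (-11.4% to 31.4%). They ran from -4.88% to 49.0% for ACTG1, from -17.1% to 38.6% for FLNA and from -28.5% to 37.6% for MYL6. For TPM3 they ran from -40.9% to 1.89%, and for TPM1 from -38.2% to 32.7%. They were far wider for VCL, from -66.4% to 50.2%, and for SRF, from -99.5% to 125%. Similar levels are thus not shown for VCL and SRF, and similarity was not tested for any member.

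**Figure D3:**
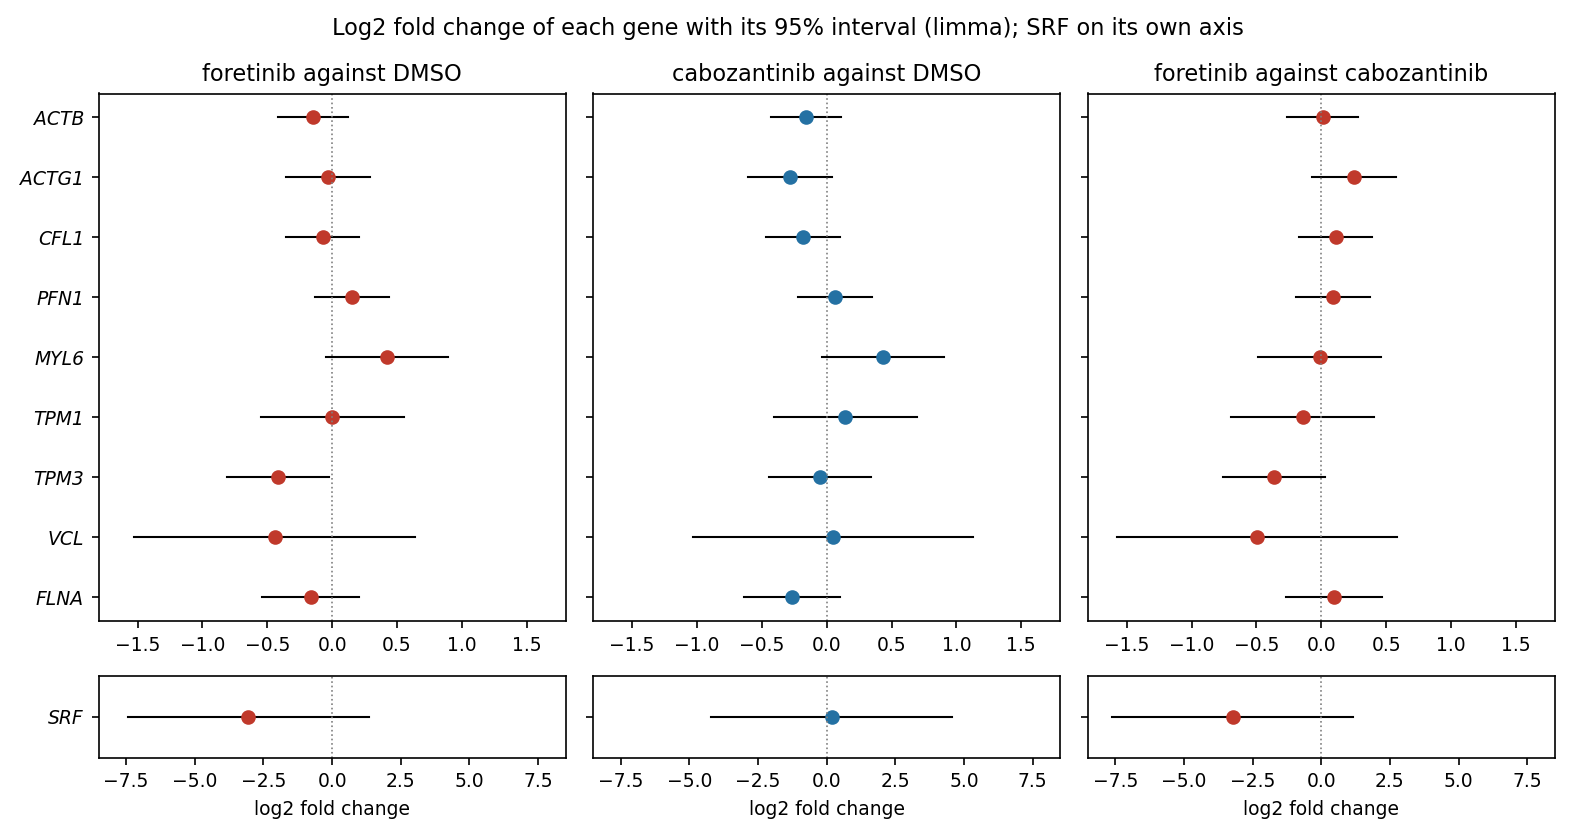
Log2 fold change (horizontal axes) of each gene with its 95% interval from limma in the 3 comparisons; SRF has an axis of its own because its interval runs from -7.44 to 1.35 for foretinib against DMSO. All intervals cross 0 except that of TPM3 for foretinib against DMSO, which runs from -0.81 to -0.02 before adjustment over all genes.

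Other genes of the pathway were grouped by role, and limma called 0 genes of any list described here in any comparison. At an unadjusted p below 0.05, 2.17% of all tested genes were higher and 6.9% were lower in foretinib than in DMSO. Without overlap, 7.69% of all tested genes were lower and 3.99% higher in foretinib than in DMSO. These shares were 9.7% and 4.49% for foretinib against cabozantinib, and 4.71% and 5.18% for cabozantinib against DMSO. Among 8 tested SRF cofactors and their regulators, the median log2 fold change of foretinib was -0.85 relative to DMSO (-0.34 over all genes) and -0.64 relative to cabozantinib (-0.44 over all genes), and that of cabozantinib was -0.37 relative to DMSO (0.04 over all genes). These medians depended on the genes of low level and on single libraries: among genes with a mean of at least 500 they were 0.060 relative to DMSO and 0.12 relative to cabozantinib for foretinib, and without foretinib library 2 they were -0.46 and -0.13. Without foretinib library 4 the median relative to cabozantinib was -0.080, and without DMSO library 2 the cabozantinib median relative to DMSO was -0.21. At an unadjusted p below 0.05 the list had 1 gene in foretinib against cabozantinib, where 9.9% of all genes had such a p. It was PHACTR1, which encodes an actin and protein phosphatase 1 binding protein with the same kind of actin-binding motif as MRTFs. PHACTR1 was at 1217, 1440 and 1999 in foretinib, against 169, 363 and 277 in cabozantinib and 369, 1349 and 857 in DMSO. Foretinib values lay above all cabozantinib values and overlapped with DMSO (log2 fold change 2.56 against cabozantinib, 0.92 to 4.20, limma adjusted p = 0.377), and DESeq2 called this difference (adjusted p = 0.0041). MKL2, an MRTF coactivator, was at 1682, 1648 and 2141 in cabozantinib, against 2979, 2791 and 2161 in DMSO, a log2 fold change of -0.53 (-1.48 to 0.42, limma adjusted p = 1.00). MKL1, the other MRTF coactivator, went the other way in this comparison, with a log2 fold change of 0.45 (limma unadjusted p = 0.300, against 0.249 for MKL2).

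Of the other reported MRTF and SRF target genes 19 were tested, and 1 was higher and 2 were lower in foretinib than in DMSO at an unadjusted p below 0.05. The median log2 fold change was -1.05 for foretinib against DMSO, where that of all genes was -0.34. It was -0.23 among genes with a mean of at least 500, -0.32 after quantile normalisation and -0.38 without foretinib library 2, where all genes had -0.10, -0.04 and -0.27. Without foretinib library 4 it was -0.61. Cabozantinib against DMSO gave a median of -0.35 (0.04 over all genes), -0.16 without DMSO library 4 and -0.058 among genes with a mean of at least 500. The smallest p of the list for foretinib against DMSO was that of CNN2, which encodes the actin-binding protein calponin 2. CNN2 was at 230, 3.84 and 0 in foretinib, against 821, 240 and 656 in DMSO (limma adjusted p = 0.523). Like SRF, it was at 0 in foretinib library 4, which had 21.02% of tested genes at 0.

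Of 3 tested immediate early genes, 1 was lower in foretinib than in DMSO at an unadjusted p below 0.05. This was EGR1, a transcription factor gene that SRF controls together with ternary complex factors. EGR1 was at 1029, 902 and 208 in foretinib, against 2330, 2610 and 2913 in cabozantinib and 4430, 4525 and 4944 in DMSO. Its 3 groups did not overlap, with a log2 fold change of -3.00 for foretinib against DMSO (-4.13 to -1.87, limma adjusted p = 0.358) and -2.17 for foretinib against cabozantinib (-3.30 to -1.04, adjusted p = 0.377). For cabozantinib against DMSO it was -0.83, with an interval that crossed 0 (-1.96 to 0.30, limma unadjusted p = 0.137). DESeq2 called both foretinib differences (adjusted p = 1.4e-07 and 0.0012). Quantile normalisation made that of foretinib against DMSO a limma call (adjusted p = 0.0146).

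Actin nucleation and elongation factors numbered 34 tested genes, of which 3 were lower and 0 higher in foretinib than in DMSO at an unadjusted p below 0.05. VASP, which extends filaments at the leading edge, was at 27.96, 0 and 12.5 in foretinib, against 395, 296 and 177 in cabozantinib and 734, 1294 and 490 in DMSO. All foretinib values lay below all others, the limma adjusted p was 0.370 against DMSO and 0.431 against cabozantinib, and DESeq2 called both (adjusted p = 0.000225 and 0.0186). The mean of VASP over all libraries was low, at 381, and foretinib libraries had 16.3% to 21.02% of tested genes at 0. The part of this in the VASP values was not tested. ARPC1A, a subunit of the Arp2/3 complex that branches filaments, was at 2718, 3377 and 1383 in foretinib, against 5321, 5450 and 4044 in cabozantinib and 3071, 5504 and 5562 in DMSO (-0.96 against DMSO, with overlap, limma adjusted p = 0.477). WASL, which activates Arp2/3, was at 3077, 2753 and 3142 in cabozantinib, against 1423, 1953 and 1723 in DMSO, without overlap (0.82, limma adjusted p = 1.00).

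Among 25 tested genes of turnover, capping and monomer binding, 2 were higher and 1 was lower in foretinib than in DMSO at an unadjusted p below 0.05. CAP1, a partner of cofilin in recycling monomers, was at 9599, 6484 and 3448 in foretinib, against 3902, 2862 and 2247 in cabozantinib and 3983, 2256 and 2241 in DMSO. Foretinib libraries 1 and 2 lay above all DMSO libraries and library 4 did not, the log2 fold change was 1.14 (0.31 to 1.97, limma adjusted p = 0.425), and DESeq2 called it (adjusted p = 0.0222). TESK1, a kinase that phosphorylates cofilin, was at 37.0, 55.7 and 348 in foretinib, against 1107, 880 and 767 in DMSO, without overlap (limma adjusted p = 0.465). CORO1B, a coronin that helps debranch filaments, was at 2319, 2235 and 3366 in foretinib, against 1160, 1063 and 1296 in cabozantinib, without overlap (1.15, limma adjusted p = 0.394; DESeq2 adjusted p = 0.0419).

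Crosslinkers and adhesion proteins gave 28 tested genes, with 1 higher and 3 lower in foretinib than in DMSO at an unadjusted p below 0.05. FSCN1, the filopodial bundling protein fascin, was at 1506, 2360 and 821 in foretinib, against 3423, 3801 and 2943 in DMSO, without overlap (-1.24, limma adjusted p = 0.406). SPTBN1, a spectrin of the membrane skeleton, was at 28686, 23070 and 28059 in foretinib, against 21697, 19871 and 18938 in DMSO, also without overlap (0.40, 0.09 to 0.70, limma adjusted p = 0.442; DESeq2 adjusted p = 0.0431). ITGB1, the beta subunit of many integrins, was at 4419, 5096 and 4434 in cabozantinib, against 2356, 2931 and 3154 in DMSO, without overlap (0.73, 0.15 to 1.32, limma adjusted p = 1.00).

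**Figure D4:**
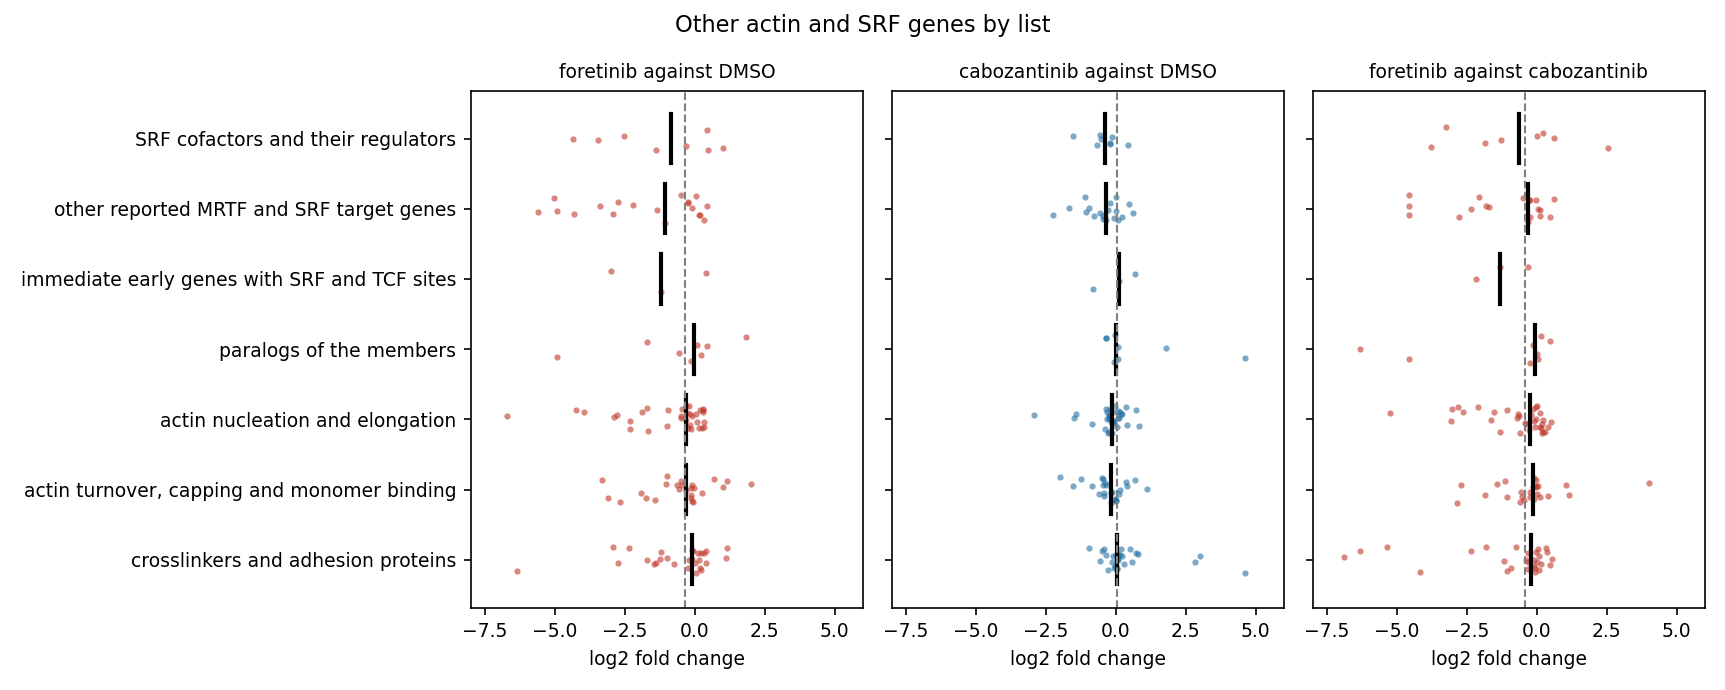
Log2 fold change (horizontal axes) of each tested gene of the other lists of actin and SRF genes in the 3 comparisons, as dots, with the list median as a black bar and the median of all tested genes as a dashed line (-0.34, 0.04 and -0.44 from left to right). Most genes lie near 0, and the far points on the left include FLNC, at -6.32 for foretinib against cabozantinib and at 0 in 2 foretinib libraries.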

How the data were processed

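RNA from 9 libraries of NCI-H1155 cells was measured, 3 each for foretinib, cabozantinib and DMSO. The deposited values are a signal per gene and library, read counts divided by 1 size factor per library, as seen from the values themselves. TopHat2 2.0.13, Cufflinks 2.2.1, HTSeq, DESeq2 and the build hs37d5 are named, without roles, per the submitters' processing notes; strand setting, annotation and filters were not given in the sources used. In all 9 columns 100% of values above 0 were whole multiples of 1 step within 1e-06, which gave back whole reads, though an automatic check could tell this for only 6 columns.

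A gene was tested where 3 or more libraries had a value of 10 or above (12642 genes), as log2(value + 1) with limma 3.58.1 (trend) in R 4.3.3; zeros make such fold changes differ from ratios of means. Comparisons share libraries and 1 estimate of spread. edgeR 4.0.16 and DESeq2 1.42.0 on recovered reads, other pseudocounts (10 and 100), filters, scalings, a replicate block, only the 6 libraries compared and leaving out each library were alternatives. Without molecular identifiers, reads from 1 molecule cannot be told from others. The p-values of limma, edgeR and DESeq2 set a difference against the spread between these libraries, estimated partly over all genes.

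The members and lists were chosen with earlier results of these data known. Genes named besides the members were the up to 2 with the smallest p per list and comparison, pseudogene rows, and the 3 genes most like SRF; the text describes some of them. Overlapping antisense genes cannot be separated. 1 further list of genes is not reported here.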

Additional observations from a re-analysis of the deposited data

How the results depend on the processing

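For all 30 member differences the adjusted p stayed above 0.05 in all 19 alternatives (smallest 0.152, TPM3 by DESeq2). Of the 30, 17 kept their sign throughout, and the cause of the sign changes was not tested. Not every alternative could change a sign. Other filters, only the 6 libraries compared and leaving out a library of the group not compared leave a log2 fold change as it was. With quantile normalisation the log2 fold change was -0.10 for TPM1 in foretinib against DMSO and -0.13 for ACTB in foretinib against cabozantinib; with TMM scaling these were -0.030 and -0.031, and with edgeR -0.043 and -0.015. DESeq2 gave -0.0097 for TPM1. Same-numbered libraries showed no sign of pairing (correlations -0.02 to 0.03 over 5488 genes), which does not exclude it. Foretinib library 1 and cabozantinib library 3 share their number with no other library. In the replicate block they therefore add nothing to the comparisons. The replicate block left 0 members called and gave, for foretinib against DMSO, -0.067 for TPM1 and 0.0073 for FLNA, for cabozantinib against DMSO -0.019 for TPM1 and -0.0052 for VCL, and for foretinib against cabozantinib -0.037 for ACTB, -0.018 for ACTG1 and -0.013 for PFN1.

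Leaving out each library gave, for foretinib against DMSO, -0.20 to 0.14 for TPM1, -0.17 to 0.15 for ACTG1, -1.14 to 0.00065 for VCL and -4.65 to -0.02 for SRF. For cabozantinib against DMSO the ranges were -0.055 to 0.28 for TPM1, -0.27 to 0.29 for VCL, -0.14 to 0.069 for TPM3 and -0.070 to 0.46 for SRF. For foretinib against cabozantinib they were -0.13 to 0.12 for MYL6, -0.12 to 0.11 for ACTB and -0.0096 to 0.24 for FLNA. The log2 ratio of ACTB to SRF for foretinib against DMSO, 2.90, ranged from -0.034 to 4.53, the low end without foretinib library 4.

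DESeq2 called 1 gene each among the MRTF and SRF targets (THBS1), immediate early genes, nucleation, turnover and adhesion lists for foretinib against DMSO, and 1, 1, 1 and 2 among cofactors, immediate early genes, nucleation and turnover for foretinib against cabozantinib, where limma called 0. Quantile normalisation called 1 immediate early gene, EGR1. DESeq2 called 650, 47 and 618 genes over the table for foretinib against DMSO, cabozantinib against DMSO and foretinib against cabozantinib, and quantile normalisation called 1 for foretinib against DMSO, where limma and edgeR called 0. SRF and VCL had the widest intervals among the members.

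List medians of the log2 fold change moved by more than the spread between libraries, or changed sign, as follows. The cause was not tested. In the main fit the foretinib against DMSO medians were -1.20 (immediate early genes), -0.044 (paralogs), -0.30 (nucleation), -0.33 (turnover) and -0.11 (crosslinkers). Over all tested genes the main median was -0.34. It moved to -0.15 (pseudocount 100), -0.10 (mean of at least 500), -0.04 (quantile normalisation), -0.31 (replicate block), -0.027 (edgeR) and 0.0014 (DESeq2). For foretinib against DMSO, a pseudocount of 100 gave -0.23 (targets), 0.37 (immediate early genes) and -0.19 (nucleation). A mean of at least 500 gave 0.060 (cofactors), -0.23 (targets), 0.13 (paralogs), -0.16 (nucleation) and -0.24 (turnover). Quantile normalisation gave -0.32 (targets), 0.30 (immediate early genes) and 0.028 (paralogs). The replicate block gave -3.43 (immediate early genes) and -0.14 (nucleation). The edgeR fit gave -0.44 (cofactors), -0.17 (targets), 0.33 (immediate early genes), -0.12 (nucleation), -0.19 (turnover) and 0.0011 (crosslinkers). DESeq2 gave -0.41 (cofactors), -0.13 (targets), 0.36 (immediate early genes), -0.090 (nucleation), -0.16 (turnover) and 0.032 (crosslinkers). For cabozantinib against DMSO the main medians were 0.10 (immediate early genes), 0.021 (paralogs), -0.15 (nucleation) and -0.18 (turnover). Over all tested genes the main median was 0.04. It was 0.012 (mean of at least 500), 0.015 (quantile normalisation), 0.043 (replicate block), 0.013 (edgeR) and 0.0073 (DESeq2). Among the lists, a mean of at least 500 gave -0.058 (targets). Quantile normalisation gave -0.10 (immediate early genes). The replicate block gave 0.96 (immediate early genes) and -0.12 (turnover). The edgeR fit gave -0.25 (turnover). DESeq2 gave -0.26 (turnover). For foretinib against cabozantinib the main medians were -1.30 (immediate early genes), -0.065 (paralogs), -0.24 (nucleation), -0.13 (turnover) and -0.20 (crosslinkers). Over all tested genes the main median was -0.44. It moved to -0.18 (pseudocount 100), -0.11 (mean of at least 500), -0.05 (quantile normalisation), -0.33 (replicate block), -0.034 (edgeR) and 0 (DESeq2). Among the lists, a pseudocount of 100 gave -0.054 (nucleation) and -0.11 (crosslinkers). A mean of at least 500 gave 0.12 (cofactors), 0.027 (paralogs), -0.027 (nucleation) and -0.072 (crosslinkers). Quantile normalisation gave -0.14 (nucleation) and -0.22 (turnover). The replicate block gave -2.94 (immediate early genes), -0.47 (paralogs) and -0.039 (nucleation). The edgeR fit gave 0.055 (nucleation) and -0.057 (crosslinkers). DESeq2 gave -0.26 (cofactors), 0.090 (nucleation), -0.045 (turnover) and -0.022 (crosslinkers). Leaving out each library, the medians for foretinib against DMSO ranged over -3.05 to 0.52 (immediate early genes), -0.49 to -0.19 (nucleation), -1.07 to -0.46 (cofactors), -1.36 to -0.38 (targets), -0.50 to -0.11 (turnover) and -0.12 to 0.040 (paralogs). Leaving out each library, the medians for cabozantinib against DMSO ranged over -0.54 to 0.64 (immediate early genes), -0.039 to 0.10 (paralogs), -0.23 to 0.0033 (nucleation) and -0.27 to -0.13 (turnover). Leaving out each library, the medians for foretinib against cabozantinib ranged over -0.25 to -0.021 (paralogs), -0.30 to -0.074 (nucleation), -0.68 to -0.080 (cofactors) and -0.23 to -0.082 (turnover).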

Other observations

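Among 5488 genes with a high mean level, the 3 whose log2 profile over the 9 libraries lay closest to that of SRF were SIPA1L1, HEXA and HIST1H4D, with root mean square distances of 0.33, 0.39 and 0.40. Each had a value of 1.05, a single read, in foretinib library 4 and at least 498 in every other library, so that the likeness rests on that library.

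Of other reported MRTF and SRF targets with a promoter entry, 5 of 22 also had an exact CArG box upstream of the start. These were ACTN1, CNN2, FHL1, TGFB1I1 and TPM4. So did 4 of 12 paralogs, 2 of 6 immediate early genes, 1 of 8 cofactors and 2 of 26 crosslinkers (ACTN1 and TES). The counts were 0 of 30 nucleation genes and 0 of 25 turnover genes. Some genes are in several lists. The share over all promoters was 1.16%, counted per promoter and not per gene. The smooth muscle genes TAGLN, MYH11, DES and ACTG2, which SRF controls with myocardin in muscle, were each at 0 in at least 7 of the 9 libraries, whereas SMTN of the same list was at 754 to 2535 in every library.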
